A study of Mus musculus with 6 samples.

Results

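The guanylate-binding proteins (GBPs) described here are the 10 mouse genes Gbp2, Gbp2b, Gbp3, Gbp4, Gbp5, Gbp6, Gbp7, Gbp8, Gbp9 and Gbp10, taken by symbol from the count tables; all 10 were found among 56832 genes. RNA of cells labelled as peripheral blood monocytes was sequenced in 3 libraries of the DTR group (genotype PF4cre-iDTR, source labelled thrombocytopenic) and 3 libraries of the WT group (genotype WT, source labelled control). Diphtheria toxin is the labelled treatment of both groups, and age and strain are not in the labels. In the PF4cre-iDTR genotype, Cre recombinase driven by the promoter of platelet factor 4, which is active in megakaryocytes, permits expression of a diphtheria toxin receptor, so that genotype and loss of platelets cannot be told apart in this comparison. No label ties a library to an animal of its own, and p-values therefore measure only the variation among the 3 libraries per group, some or all of which may be technical.

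GBPs are large GTPases of the dynamin superfamily that interferons, above all interferon gamma, induce in macrophages and other cells. They assemble on the vacuoles of intracellular pathogens and on cytosolic bacteria, expose them to autophagy proteins and immunity-related GTPases, and promote inflammasome activation by bacterial DNA and lipopolysaccharide. Interferon signals reach their promoters through GAS elements and through ISRE elements, the second of which IRF1 binds among other factors.

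The family lies in 2 clusters of similar genes. In GENCODE M21 (GRCm38), Gbp2, Gbp2b, Gbp3, Gbp5 and Gbp7 are on chromosome 3, and Gbp4, Gbp6, Gbp8, Gbp9 and Gbp10 are on chromosome 5. Coding sequences within the chromosome 5 cluster were 90.7% to 98.4% identical over 10 pairs, against 70.1% to 83.6% over the 10 pairs within the chromosome 3 cluster. Gbp6 and Gbp10 formed the closest pair, with 30 differences over 1833 coding bases. The following 60 coding bases (positions 1567 to 1626 of Gbp6, counted from the first base of its coding sequence) are the stretch, searched codon by codon, with the most differences between Gbp6 and Gbp10, and are shown because this similarity limits which gene a read can be given to. Capitals mark bases that differ from Gbp6, and in Gbp6 itself those that differ from Gbp10.
Gbp6: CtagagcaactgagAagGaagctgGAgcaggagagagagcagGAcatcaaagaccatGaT
Gbp10: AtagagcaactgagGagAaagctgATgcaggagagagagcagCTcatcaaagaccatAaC
Gbp4: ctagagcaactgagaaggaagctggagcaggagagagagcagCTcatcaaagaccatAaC
Gbp9: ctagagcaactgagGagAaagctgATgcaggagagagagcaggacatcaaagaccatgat
Gbp8: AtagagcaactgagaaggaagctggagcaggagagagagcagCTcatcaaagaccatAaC

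Even here Gbp10 differed from Gbp6 at 9 of 60 bases, while Gbp4 and Gbp9 differed at 4 each and Gbp8 at 5. Of the 100-base windows of the Gbp6 transcript, 82.9% occur unchanged in another annotated gene, and of those of Gbp10 70.9%. In both cases the gene sharing most windows was Gm43302, whose annotated exons overlap those of Gbp6 and Gbp10. The deposited row of Gm43302 held 0 counts in all 6 libraries. Gm43802, annotated over 637 exon bases of Gbp7, also held 0 counts in all 6 libraries, and 10.2% of the Gbp7 windows are shared, mostly with it. For Gbp2, Gbp2b and Gbp5 no 100-base window was shared, for Gbp3 0.929%, and for Gbp9, Gbp4 and Gbp8 2.01%, 2.88% and 3.81%. The sources used here do not give the read length or how reads that fit several genes were counted. Counts of Gbp6 and Gbp10 are therefore uncertain, whereas those of Gbp2, Gbp2b, Gbp3 and Gbp5 rest on sequence that is nearly all their own.

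**Figure D1:**
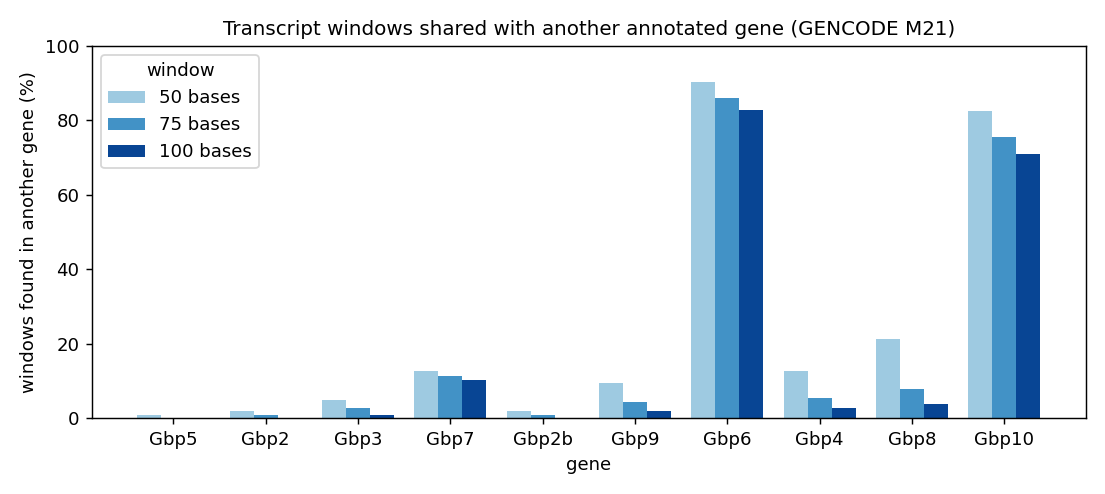
Share of windows of 50, 75 and 100 bases (y axis, percent) in the main transcript of each member (x axis) that occur unchanged in another annotated gene. Gbp6 and Gbp10 are at 82.9% and 70.9% for 100-base windows, and the other members at 10.2% or less.

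Promoters were available for the 5 members on chromosome 3 and for none on chromosome 5 (RefSeq, GRCm38.p6, 250 bases before to 50 after the start). Windows of 3 of them are shown, with capitals marking matches to the ISRE core GAAANNGAAA (TTTCNNTTTC on the other strand) and to the GAS motif TTCNNNGAA. They were chosen for the most abundant member (Gbp5), the member of this cluster with the largest change (Gbp3) and the member near 0 counts (Gbp2b). The windows are chr3:142496684-142496983, chr3:142559794-142560093 and chr3:142594597-142594896, all on the plus strand.
Gbp5: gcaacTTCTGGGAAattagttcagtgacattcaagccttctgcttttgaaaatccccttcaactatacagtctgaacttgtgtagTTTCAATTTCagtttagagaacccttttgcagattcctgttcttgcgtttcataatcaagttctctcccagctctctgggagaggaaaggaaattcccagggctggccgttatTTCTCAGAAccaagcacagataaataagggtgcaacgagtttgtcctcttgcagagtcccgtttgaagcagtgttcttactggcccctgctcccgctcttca
Gbp3: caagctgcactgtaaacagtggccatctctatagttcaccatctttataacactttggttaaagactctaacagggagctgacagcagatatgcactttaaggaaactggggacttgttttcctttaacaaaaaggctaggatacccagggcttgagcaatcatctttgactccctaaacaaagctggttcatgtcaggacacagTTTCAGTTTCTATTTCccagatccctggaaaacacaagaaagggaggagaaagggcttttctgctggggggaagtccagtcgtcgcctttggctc
Gbp2b: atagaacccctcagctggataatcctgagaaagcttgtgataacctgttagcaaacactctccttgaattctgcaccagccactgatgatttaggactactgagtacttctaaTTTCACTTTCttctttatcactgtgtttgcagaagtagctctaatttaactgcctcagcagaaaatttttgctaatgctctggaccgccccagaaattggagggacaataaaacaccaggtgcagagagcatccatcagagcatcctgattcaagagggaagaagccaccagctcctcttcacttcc

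Every one of the 5 genes had an ISRE core match in a promoter window, against 3.44% of 32851 promoters of the same length. Counted from the start, the match began at position -165 in Gbp5, -137 in Gbp2b, -59 in Gbp2 and -53 in Gbp7. Gbp3 had 2 matches that overlap, beginning at -45 and -39, and a second Gbp3 window from another start had none. Gbp5 and Gbp7 also had 2 GAS matches each, a motif found in 8.3% of promoters, and Gbp2, Gbp2b and Gbp3 had none in these windows. A match describes letters and not binding; Gbp2b, near 0 counts in every library, carries the same ISRE core as its abundant neighbour Gbp2.

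Every member that could be tested was lower in DTR monocytes. Of the 10 members, 7 passed the filter on low counts and 3 (Gbp2b, Gbp8 and Gbp10) did not. The 7 had at least 184 counts in every library of both groups, so none entered the test through 1 group alone. All 7 were lower in the DTR group (edgeR's quasi-likelihood test, Benjamini-Hochberg adjusted p under 0.05), with log2 fold changes from -0.70 to -0.28. Over all 12488 genes tested, 22.7% were lower by the same rule, 22.4% were higher and 45.1% changed in either direction. Among 7920 tested genes in the same range of mean level (8.5 to 882 counts per 1000000 counts of the library, CPM), 24% were lower. No member was higher, also at an unadjusted p under 0.05 (0 members) and by DESeq2 and limma-voom (0 members each). In bulk RNA, fewer cells of an expressing type and less RNA per cell cannot be told apart.

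Gbp5, which in mice promotes AIM2 inflammasome activation by cytosolic bacteria, was the member with the highest level. It had 799, 805 and 786 CPM in the DTR libraries, against 968, 962 and 973 CPM in the WT libraries. The groups did not overlap, which held for 51.3% of all tested genes (26% with DTR as the lower group), and the spread within each was under 2% of its mean. The log2 fold change was -0.28 (SE 0.0239, edgeR adjusted p = 8.83e-15), the smallest change among the 7.

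Gbp2, which in mice accumulates on the Toxoplasma vacuole and takes part in lysis of cytosolic bacteria, had 537, 514 and 513 CPM in the DTR libraries, against 664, 649.5 and 679 CPM in the WT libraries. The groups did not overlap, and the level fell by 0.35 on the log2 scale (SE 0.0257, adjusted p = 4.12e-17 by edgeR). Gbp3, which also moves to the Toxoplasma vacuole in mouse cells, had 343, 330 and 323 CPM in the DTR libraries, against 483, 483 and 506 CPM in the WT libraries. It fell by 0.56 on the log2 scale (SE 0.0271, adjusted p = 1.23e-24 by edgeR), the largest change on chromosome 3. Gbp7, linked in mice to assembly of the phagocyte NADPH oxidase and to autophagy, had 224, 234.5 and 230.2 CPM in the DTR libraries, against 289.7, 293 and 291 CPM in the WT libraries. Its groups did not overlap either, and its log2 fold change was -0.34 (SE 0.0274, edgeR adjusted p = 8.15e-16).

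On chromosome 5 the levels were lower, and Gbp9 and Gbp4 had larger fold changes than any chromosome 3 member; that difference was not tested. Gbp9, which is recruited to the Toxoplasma vacuole in mouse cells, had 45.7, 46.9 and 47.8 CPM in the DTR libraries, against 74.0, 71.6 and 76.7 CPM in the WT libraries. Every DTR library lay below every WT library, with a log2 fold change of -0.66 (SE 0.0393, edgeR adjusted p = 7.73e-21). Gbp4 had 6.75, 6.17 and 6.49 CPM in the DTR libraries, against 10.4, 10 and 11.2 CPM in the WT libraries. Its log2 fold change of -0.70 was the largest in the family and the least precise (SE 0.0873, edgeR adjusted p = 1.57e-09), since it rests on 184 to 360 counts per library. Gbp6, linked in mice to defence against Listeria and mycobacteria, had 20.5, 22.9 and 21.1 CPM in the DTR libraries, against 30.4, 27.4 and 27.2 CPM in the WT libraries. It changed by -0.40 (SE 0.0564, edgeR adjusted p = 3.7e-08) without overlap of the groups, and this value carries the uncertainty from Gbp10 and Gm43302. Summed with Gbp10 the mean was 21.5 ± 1.23 CPM in DTR libraries and 28.4 ± 1.75 CPM in WT libraries (SD, n = 3 each). Gbp10 added almost no counts, so this sum cannot remove that uncertainty.

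**Figure D2:**
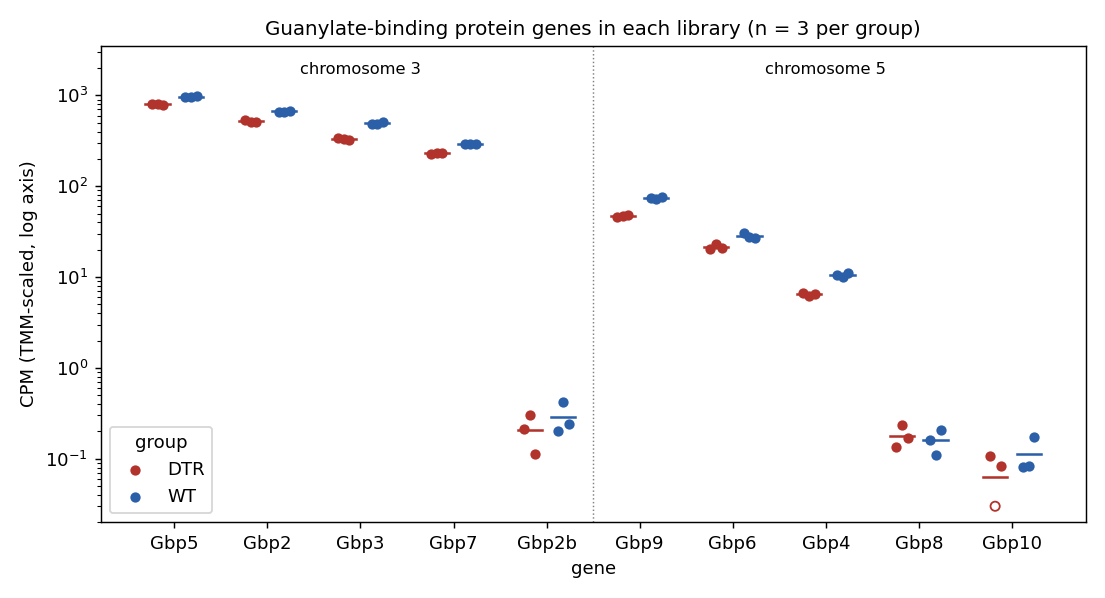
CPM of each member (x axis) in each library on a log y axis, with DTR libraries left of WT libraries and bars for the group mean (n = 3 per group); the open circle stands for 0 counts and is drawn at an arbitrary low height. For the 7 members above 1 CPM the groups do not overlap, while those of Gbp2b, Gbp8 and Gbp10 do.

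Gbp2b, Gbp8 and Gbp10 were near the detection limit in both groups. Gbp2b (mouse GBP1) had 8, 9 and 4 counts in the DTR libraries, against 5, 15 and 7 counts in the WT libraries, a ratio of 0.677 (95% counting interval 0.364 to 1.24). Its 100-base windows are all its own, and its neighbour Gbp2 had 15342 or more counts in every library. Gbp8 had 5, 7 and 6 counts in the DTR libraries, against 4, 4 and 6 counts in the WT libraries, a ratio of 1.12 (0.526 to 2.43). Gbp10, linked in mice to the same antibacterial defence as Gbp6, had 4, 0 and 3 counts in the DTR libraries, against 2, 3 and 5 counts in the WT libraries, a ratio of 0.609 (0.197 to 1.77). The 0 counts of Gbp10 allow up to 0.101 CPM in that library (3 counts). The groups overlapped for all 3 genes, so that no difference was detectable at this depth, and the intervals cover counting error only. For Gbp10 the unknown treatment of reads shared with other genes also limits the count. Gbp11, annotated as a polymorphic pseudogene with a coding sequence and closest to Gbp8, had 6 counts in the DTR group and 6 in the WT group. Gbp2-ps had 0 in every library.

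**Figure D3:**
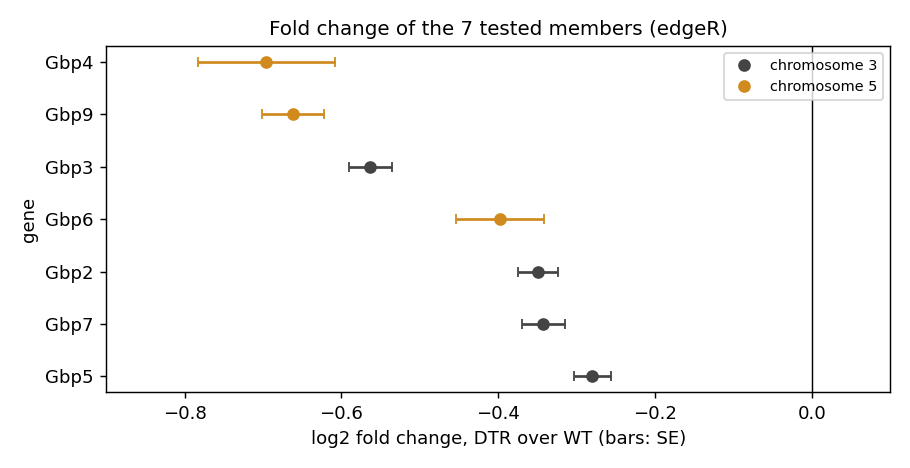
Log2 fold change of DTR over WT (x axis) for the 7 tested members (y axis), with bars for the standard error and colours for the chromosome. All lie below 0, from -0.70 for Gbp4 to -0.28 for Gbp5.

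Per kilobase of transcript the order of the 7 tested members was the same in both groups, and no neighbours in that order overlapped. Gbp5 stood at 261 CPM per kb in DTR libraries and 317 in WT libraries, Gbp2 at 207 and 264, and Gbp3 at 124 and 183. Gbp7 stood at 41.0 CPM per kb in DTR libraries and 51.8 in WT libraries. Gbp9 had 10.7 CPM per kb in DTR libraries and 16.9 in WT libraries, and Gbp6 had 8.26 and 10.9. Gbp4 had 1.43 and 2.31. The place of Gbp6 in this order is uncertain, since 82.9% of its 100-base windows occur in another annotated gene. Lengths are those of the transcript with the longest coding sequence in GENCODE M21, which may not be the annotation used for counting. All 10 members summed to 1950 ± 24.5 CPM in DTR libraries and 2530 ± 34.3 CPM in WT libraries (SD, n = 3 each), a ratio of 0.774. WT3 was the highest WT library for 5 of the 7 tested members and WT2 the lowest for 5, while no single DTR library led. The chromosome 3 members made up 96.4% of the DTR sum and 95.3% of the WT sum.

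Each tested member's share of the family's summed CPM was also compared. With 3 against 3 libraries the test used could not reach p under 0.05, so it cannot decide whether a share differed. The shares are computed from the member levels given above and are no separate evidence. Gbp5 took 40.4% to 41.1% of the summed CPM in DTR libraries, against 37.9% to 38.5% in WT libraries. Gbp3 took 16.8% to 17.4% in DTR libraries, against 19.2% to 19.7% in WT libraries. Gbp9 took 2.31% to 2.48% in DTR libraries, against 2.87% to 2.99% in WT libraries. The share of Gbp4 did not overlap between the groups either, at 0.315% to 0.342% in DTR libraries and 0.401% to 0.435% in WT libraries. For each of these 4 of 7 shares an exact permutation test, two-sided, gave p = 0.1, the smallest that 3 against 3 libraries allow (adjusted p = 0.175 over the 7 shares). The shares of Gbp2, Gbp6 and Gbp7 overlapped. Gbp3 and Gbp7, which are 80% identical in coding sequence, had log2 fold changes of -0.56 and -0.34, and with their counts summed the change was -0.48 (SE 0.0247). The 5 chromosome 5 members summed gave -0.59 (SE 0.034) and the 5 chromosome 3 members -0.36 (SE 0.0227).

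**Figure D4:**
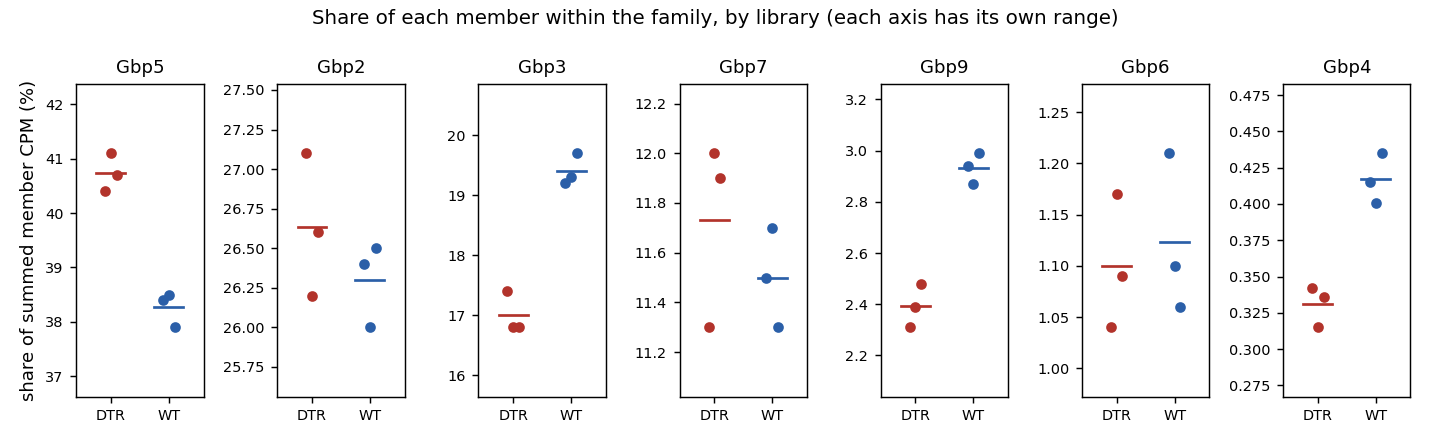
Share of the summed member CPM (y axis, percent, with a range of its own in each panel and not starting at 0) taken by each tested member, with DTR libraries left of WT libraries, points for libraries and bars for the mean (n = 3 per group). The shares of Gbp3, Gbp9 and Gbp4 are lower in DTR libraries and that of Gbp5 is higher, with no overlap, while Gbp2, Gbp7 and Gbp6 overlap.

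Of the 12 protein-coding genes nearest to the clusters in RefSeq (GRCm38.p6), 10 had a row in the files and 8 were tested, of which 1 was lower and 2 higher, no larger a share than the 45.1% called over all tested genes. Beside the chromosome 3 cluster, Pdlim5 was at 85.2 ± 2.61 CPM in DTR libraries and 90.1 ± 1.27 CPM in WT libraries (log2 fold change -0.08), and Pkn2 was higher by 0.09. Kyat3 and Gtf2b did not pass the test. Beside the chromosome 5 cluster, Lrrc8c, a subunit of volume-regulated anion channels, was higher at 163 ± 3.92 CPM in DTR libraries against 124 ± 0.644 CPM in WT libraries (log2 fold change 0.40). Lrrc8b, Abcg3 and Zfp951 did not pass the test, with Abcg3 below 1 CPM at 0.590 ± 0.0535 CPM in DTR libraries and 0.869 ± 0.0799 CPM in WT libraries. The difference between members and neighbours was not tested.

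Genes of the interferon signalling list split in direction. Of 17 tested genes 8 were lower, 3 were higher and 6 did not pass, against 22.7% lower and 22.4% higher over all tested genes. The median log2 fold change was -0.04, against -0.001 over all tested genes. Irf8, an interferon-responsive factor of the monocyte lineage, was at 109 ± 4.35 CPM in DTR libraries and 143 ± 0.568 CPM in WT libraries (log2 fold change -0.40). The kinase gene Jak2 was at -0.23 and Usp18, a brake on type I interferon receptors, at -0.24. Irf1, a main activator of GBP promoters and outside the naming rule, was picked after its values were seen; it was at 183 ± 6.45 CPM in DTR libraries and 219 ± 8.66 CPM in WT libraries (-0.26).

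The 3 higher genes of that list were a receptor chain, a ligand and a kinase. Ifngr1, the ligand-binding chain of the interferon gamma receptor, was at 75.2 ± 1.95 CPM in DTR libraries and 52.8 ± 0.985 CPM in WT libraries (log2 fold change 0.51). Ifnb1, the gene of interferon beta, was at 4.04 ± 0.872 CPM in DTR libraries and 2.63 ± 0.224 CPM in WT libraries (0.63), and the kinase gene Tyk2 was higher by 0.08. Ifngr2, Ifnar1, Ifnar2, Jak1, Irf9 and Ptpn2 did not pass the test. Ifng, the gene of interferon gamma itself, had 0 counts in all 6 libraries, which allows at most 0.0804 to 0.101 CPM in DTR libraries and 0.0833 to 0.121 CPM in WT libraries (3 counts each).

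The proteins that meet GBPs at vacuoles were measured as 16 genes, of which 9 were lower, 2 higher and 5 not called. Over all tested genes 22.7% were lower and 22.4% higher. The median of the 16 genes was -0.13. Iigp1, an immunity-related GTPase, was at 37.0 ± 0.835 CPM in DTR libraries and 66.2 ± 1.29 CPM in WT libraries (log2 fold change -0.84). Ifi47 was at -0.25, Irgm1 at -0.19 and Tgtp2, which has a near copy in Tgtp1, at -0.21. Autophagy genes of this list were called in both directions. Atg12 was higher by 0.12 (edgeR adjusted p = 0.0281) and Gabarapl2 by 0.20. Atg5 was at -0.14 and Atg7 at -0.19, both lower and named after their values were seen. The groups of Atg12 and of Atg7 overlapped, and DESeq2 called only 1 gene of the whole list higher. Under other settings of the analysis 8 to 11 genes of the list were called, against 11. Atg3, Atg16l1, Gabarap and Gabarapl1 did not pass, nor did Irgm2, an immunity-related GTPase. Of 8 tested GTPase relatives 4 were lower, against 22.7% over all tested genes. Mx1, an antiviral GTPase, led them at 1090 ± 13.5 CPM in DTR libraries and 1360 ± 25.5 CPM in WT libraries (-0.32). None was higher at the adjusted threshold (1 at an unadjusted p under 0.05, and 0 by DESeq2 and by limma-voom), and Gvin1 and the atlastin genes Atl1, Atl2 and Atl3 did not pass.

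Of 9 inflammasome genes 5 were higher, 1 was lower and 3 were not called, with a median of 0.12, against 22.4% higher and 22.7% lower over all tested genes; the list was not tested against the GBPs. Il1b, the gene of interleukin 1 beta, had a log2 fold change of 1.32. Nlrp3, an inflammasome sensor, was at 579 ± 9.14 CPM in DTR libraries and 473 ± 6.26 CPM in WT libraries (0.29). Casp1 was higher by 0.29 and Casp4, the mouse caspase-11 that senses cytosolic lipopolysaccharide, by 0.21. Aim2, the sensor of cytosolic DNA, was at 75.3 ± 2.65 CPM in DTR libraries and 91.2 ± 0.94 CPM in WT libraries (-0.27), while Pycard, Il18 and Ninj1 did not pass. Some GBPs need a lipid anchor. Of 8 prenylation genes 1 was higher and 1 lower, against 22.4% and 22.7% over all tested genes. Fdps, which makes farnesyl diphosphate, was higher by 1.44 at a low level. It was at 5.4 ± 0.242 CPM in DTR libraries and 1.94 ± 0.481 CPM in WT libraries. Icmt, a methyltransferase acting on prenylated proteins, was at -0.27. The transferase genes Fnta, Fntb and Pggt1b and the genes Ggps1, Rce1 and Zmpste24 did not pass.

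**Figure D5:**
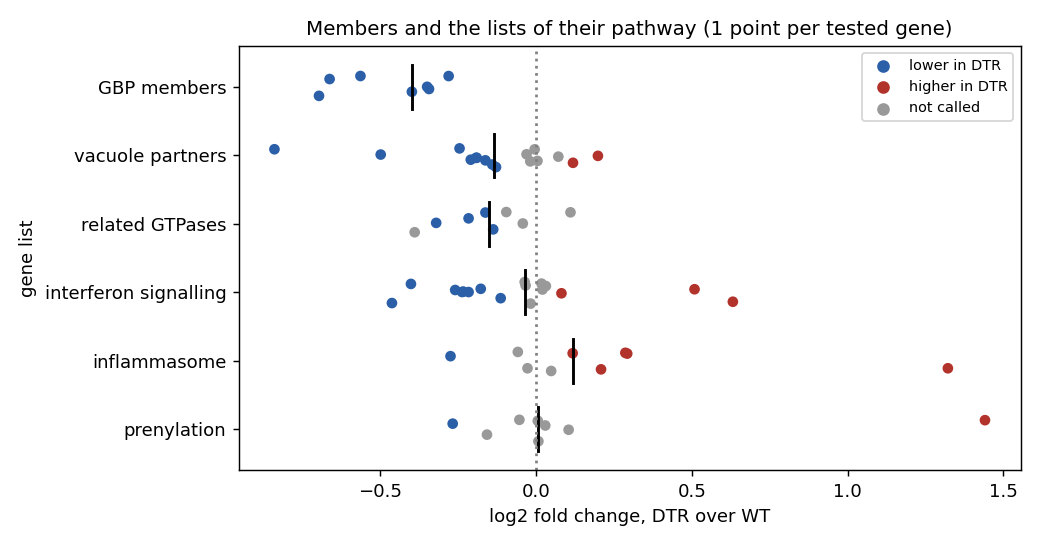
Log2 fold change of DTR over WT (x axis) of every tested gene in the member list and 5 lists of their pathway (y axis), coloured by call at an adjusted p under 0.05. Black bars are list medians, from -0.40 for the members to 0.12 for the inflammasome list, and the dotted line is the median of all tested genes; vertical scatter within a row has no meaning.

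Outside these lists, the genes whose pattern over the 6 libraries lay nearest to the mean of the 7 tested members were Gm42547, Minpp1, Rab32, Draxin and Cd164. Likeness was the Euclidean distance between log2 CPM centred on each gene's mean, over 7754 genes of at least 10 CPM. It came to 0.0332 to 0.0424 for these genes and to 0.131 to 0.304 for the members themselves. The named genes are the nearest picked from 7754, whereas the members were not picked by distance, so the ranges do not rank likeness. Rab32, a small GTPase, was at 340 ± 4.68 CPM in DTR libraries and 472 ± 13.3 CPM in WT libraries.

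The libraries held 24842319 to 37552029 counts, with scaling factors of 0.9943 to 1.002, and no library stood apart. All 11 monocyte markers were detected, 7 of them higher and 4 lower, against 22.4% higher and 22.7% lower over all tested genes. Csf1r, among the higher ones, was at 1480 ± 4.69 CPM in DTR libraries and 1230 ± 18.8 CPM in WT libraries. The largest change was in Cx3cr1, at 11.4 ± 0.374 CPM in DTR libraries and 52.2 ± 1.1 CPM in WT libraries (log2 fold change -2.19). Ly6c2, Fcgr1 and Cd68 were lower at -0.49, -0.34 and -0.30. Of the T and NK cell markers, which would mark cells able to make interferon gamma, 6 of 11 including Cd3e and Ncr1 were at 0 in every library, and the list summed to 0.475 to 0.697 CPM in DTR libraries and 0.402 to 0.976 CPM in WT libraries. B cell markers summed to 1.07 to 1.68 CPM in DTR libraries and 1.26 to 1.85 CPM in WT libraries. Of 9 dendritic cell markers 6 were tested and 5 were lower, against 22.7% lower over all tested genes, and Clec9a did not pass. None was at 0, and the untested Cd209a had the higher mean in DTR libraries (0.123 against 0.0569 CPM). The 9 markers summed to 227 to 234 CPM in DTR libraries and 304 to 321 CPM in WT libraries. Most of that sum was Bst2, itself interferon-inducible, at 213 ± 3.73 CPM in DTR libraries and 280 ± 10.5 CPM in WT libraries; Siglech was at 0.313 ± 0.0641 CPM in DTR libraries and 1.39 ± 0.099 CPM in WT libraries. Neutrophil markers summed to 327 to 338 CPM in DTR libraries and 233 to 248 CPM in WT libraries, nearly all of it Mmp8. Of 10 neutrophil markers 6 were tested, with 1 higher (Mmp8) and 1 lower (Ngp), against 22.4% and 22.7% over all tested genes. Ly6g was at 0 in every DTR library and at a mean of 0.0116 CPM in WT libraries. Basophil and mast cell markers summed to 0.322 to 0.57 CPM in DTR libraries and 6.59 to 8.31 CPM in WT libraries, and erythroid markers to at most 0.0536 CPM in DTR libraries and 1.86 to 2.41 CPM in WT libraries. Platelet markers summed to 1220 to 1290 CPM in DTR libraries and 1010 to 1050 CPM in WT libraries, nearly all of it Pf4 and Ppbp. Of 9 platelet markers 5 were tested, against 22.4% higher and 22.7% lower over all tested genes. Pf4 and Ppbp were the 2 higher ones, and the 3 lower ones were Itga2b, Gp9 and Nrgn. Gp9 was at 0 in every DTR library. Nrgn was at 0.0179 ± 0.0309 CPM in DTR libraries and 3.69 ± 0.393 CPM in WT libraries. The part of other cell types in the GBP difference was not tested.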

How the data were processed

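The authors deposited 1 table of raw counts per library. Per the labels' protocols, polyadenylated RNA was made into stranded libraries; the tools named in the submitters' processing notes are Salmon 1.5.2, featureCounts of Subread 2.0.1, STAR 2.7.9a and fastp 0.23.1. The sources used here do not give their roles, the build, the annotation, the strand setting or the treatment of multi-mapping reads. Counts were analysed with edgeR 4.0.16 in R 4.3.3 (filterByExpr, minimum count 10 and minimum total 15; TMM; robust quasi-likelihood test, group as the only term; Benjamini-Hochberg over 12488 tested genes). CPM are TMM-scaled. SE is the absolute log2 fold change over the square root of F. Steps were tested on simulated data. No 2 libraries of a group agreed within sampling noise (chi-square per degree of freedom 1.91 to 3.27). Transcript windows, coding identities and chromosomes come from GENCODE M21, promoters from RefSeq; no protein sequences were used. Genes named from lists are up to 4 per direction with the smallest p and the exceptions; like genes are the 5 nearest. Members, lists and markers were chosen with earlier results of these data known. Alternatives were other scalings, filters, tools, thresholds, a replicate block, leaving out each library, and summing similar members. The values of 1 gene of the interferon signalling list are not reported here.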

Additional observations from a re-analysis of the deposited data

How the results depend on the processing

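All 7 tested members stayed lower past the threshold under each of the 16 alternatives that refit them singly, so that the counts of 7 lower and 0 higher members were the same: 3 other scalings, 2 filters, DESeq2 1.42.0, limma-voom 3.58.1, edgeR without the robust option, an adjusted p under 0.01, a replicate block and 6 settings without a library. Leaving out libraries moved Gbp4 between -0.74 and -0.65, Gbp6 between -0.44 and -0.35, and Gbp5 between -0.29 and -0.27. Upper quartile scaling moved the median of all genes to -0.025. No pairing of libraries by replicate number was seen. Deviations of same-numbered libraries correlated at -0.038, -0.089 and -0.013, and no library correlated best with its own number. Other pairs were at -0.059 to 0.088, and values this small cannot exclude a pairing. With the replicate block 5402 genes were called, against 5626. Summing members with at least 80% identical coding sequences (summed groups, not single members) was chosen after seeing the data and replaced sums by protein identity, which were not run for lack of protein sequences. Without a filter Gbp2b, Gbp8 and Gbp10 had edgeR adjusted p of 0.568, 0.908 and 0.613. Depth limits these 3 genes, and read assignment limits Gbp6 and Gbp10.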

Other observations

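Rows for Gvin genes, which encode very large interferon-inducible GTPases related to the GBPs, were looked up after values had been seen. Of 10 such rows 6 were tested. The most abundant was annotated as a pseudogene: Gvin-ps7 stood at 649 ± 26.7 CPM in DTR libraries and 640 ± 2.34 CPM in WT libraries (SD, n = 3 each), and was not called (log2 fold change 0.02, SE 0.0262, edgeR adjusted p = 0.585). Gvin3 was at 52.0 ± 1.59 CPM in DTR libraries and 60.2 ± 2.03 CPM in WT libraries. How reads were divided among these similar rows was not tested.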
